A study of Mus musculus with 4 samples.

Results

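Hypoxia-inducible factor (HIF) is the transcription factor through which cells respond to low oxygen, and the 39 mouse genes described here are its subunits, its regulators and its well-known target genes outside glycolysis. They were listed by symbol, and each was read from its brightest probe set, by mean signal over all arrays, among the probe sets to which the platform annotation gives a single gene symbol. Such a probe set was found for 36 of the 39 genes, out of 18193 genes in the series. The probe sets of Bnip3l and Loxl2 each carried a second symbol, Epo was matched by no probe set used here, and these 3 genes were left out. Of the 36, 35 were among the brighter 50% of probe sets, as were 11685 genes in all, and these were tested. Car12, a carbonic anhydrase, did not pass this filter, with signals of 95.6 and 36.1 in wildtype and 77.2 and 83.8 in Sox17+/- liver.

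The liver of C57BL/6 mouse fetuses was collected on day 17 of gestation from wildtype animals and from Sox17+/- animals, which are heterozygous for Sox17, a gene for a transcription factor of endoderm, bile ducts and arterial endothelium. The fetuses came from C57BL6 females mated with Sox17+/- males of the same strain, and the liver was separated from the biliary system before extraction of total RNA. Each genotype had 2 biological replicates, each on 1 single-colour Affymetrix array, numbered 1 and 2 in the labels. Whether a replicate was a single fetus or a pool, whether the genotypes were littermates, the kind of Sox17 allele and the sex of the fetuses are not stated in the labels. The measure is the MAS5 signal, a linear intensity per probe set. Differences are given on the log2(signal + 16) scale, which understates those of dim genes, and the number of arrays limits the precision of every value.

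Under normal oxygen, prolyl hydroxylases of the EGLN family mark the HIF alpha subunits (encoded by Hif1a, Epas1 and Hif3a) for binding by the VHL ubiquitin ligase and for breakdown. When oxygen is short the alpha subunits persist, pair with ARNT and bind a short DNA motif, the hypoxia response element, near their target genes. The subunits are therefore regulated mainly as proteins, whereas the targets are regulated as transcripts. In fetal liver the pathway is known for control of erythropoietin, vessel growth, glucose uptake and iron handling. The fetal liver holds hepatocytes, endothelium, stellate cells, macrophages and many erythroid cells, and in such a bulk sample fewer cells of a type and less RNA per cell cannot be told apart.

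The promoters of the members that stood highest are shown first, because the core of the hypoxia response element can be read in them. The core ACGTG was searched on both strands of RefSeq promoter windows of 300 bases, 250 before and 50 after the annotated start (GRCm38.p6). Arrays of the same number are compared as pairs below. Of the 12 members whose smaller pair difference was largest, 10 had a window and 7 of these held the core. The bases before the start are given 5′ to 3′ along the gene for the 5 of them with the largest smaller pair difference, with every ACGTG, or its complement on the opposite strand, in capitals.
Ankrd37 (chr8:45999851-46000100, minus strand): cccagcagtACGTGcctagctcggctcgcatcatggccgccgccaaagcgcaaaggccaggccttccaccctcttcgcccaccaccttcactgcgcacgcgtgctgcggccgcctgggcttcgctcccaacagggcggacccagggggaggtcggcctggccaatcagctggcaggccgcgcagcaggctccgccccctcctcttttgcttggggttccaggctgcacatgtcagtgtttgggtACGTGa
Egln3 (chr12:54203875-54204124, minus strand): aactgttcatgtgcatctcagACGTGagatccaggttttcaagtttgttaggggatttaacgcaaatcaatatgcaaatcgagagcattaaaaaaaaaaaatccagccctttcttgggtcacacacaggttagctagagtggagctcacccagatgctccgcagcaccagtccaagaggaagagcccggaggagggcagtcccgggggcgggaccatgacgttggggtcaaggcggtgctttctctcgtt
Hilpda (chr6:29272376-29272625, plus strand): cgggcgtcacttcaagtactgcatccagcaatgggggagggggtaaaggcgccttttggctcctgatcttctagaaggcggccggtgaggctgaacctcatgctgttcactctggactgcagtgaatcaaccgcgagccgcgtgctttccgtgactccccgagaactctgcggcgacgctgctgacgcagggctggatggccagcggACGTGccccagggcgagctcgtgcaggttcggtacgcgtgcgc
Slc16a3 (chr11:120948817-120949066, plus strand): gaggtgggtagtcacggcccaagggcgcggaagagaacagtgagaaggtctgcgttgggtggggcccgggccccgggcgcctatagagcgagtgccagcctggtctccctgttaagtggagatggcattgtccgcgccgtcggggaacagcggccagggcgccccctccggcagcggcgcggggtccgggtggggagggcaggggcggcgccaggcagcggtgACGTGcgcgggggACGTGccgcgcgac
Ddit4 (chr10:59951771-59952020, minus strand): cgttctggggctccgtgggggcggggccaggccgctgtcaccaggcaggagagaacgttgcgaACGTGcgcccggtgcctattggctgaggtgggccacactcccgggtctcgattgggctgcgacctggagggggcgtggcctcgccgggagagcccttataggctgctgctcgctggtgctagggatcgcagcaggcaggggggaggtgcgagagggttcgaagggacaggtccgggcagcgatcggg

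The Ankrd37 window held the core at 241 and 6 bases before the start, and the Slc16a3 window at 27 and 14 bases. The single core lay 229 bases before the start in Egln3, 187 in Ddit4 and 43 in the Hilpda window shown, while the other Hilpda window held none. Over all members, 22 of 43 windows held ACGTG (51.2%), against 19.6% of 32851 RefSeq windows and 25.2% of the windows of all tested genes. Among members higher in both pairs of arrays it was 18 of 31 windows, and among the other measured members 4 of 11. The members were listed as known hypoxia targets, so these shares describe the list and are no test of binding. ACGTG overlaps the E-box CACGTG, which other factors also use and which was held by 5 of the 43 windows (11.6%), against 7.15% of all windows and 9.74% of those of tested genes. In Vegfa a window held the core 211 bases before its annotated start, while the other Vegfa window held none. The letters ACGTG were not in the windows of Adm, Stc2 and Vldlr.

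Most HIF targets gave a higher signal in Sox17+/- than in wildtype liver, while the HIF subunit genes gave no common direction on their brightest probe sets. Of the 35 tested members, 26 (74.3%) were higher in both same-numbered pairs of arrays, 1 was lower in both and 8 were mixed, against 25.5% of all tested genes higher in both and 32.2% lower in both. For 20 members both Sox17+/- arrays lay above both wildtype arrays, against 14.5% of all tested genes, and for Hif1a alone both lay below, against 18.6%. The median log2 difference was 0.52 over the members and -0.02 over all tested genes. It was 0.49 in the pair numbered 1 and 0.47 in the pair numbered 2.

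No member passed the test. In the limma fit over all 22519 tested probe sets, 0 were higher (0%) and 0 lower (0%) past the threshold of 0.05 on the adjusted p. The lowest adjusted p of a member was 0.9999. At an unadjusted p under 0.05, 402 probe sets were higher (1.79%) and 521 lower (2.31%). By the same rule 11 members were higher and 0 lower, against 1.61% of tested genes higher and 2.54% lower. With 2 arrays per genotype the smallest two-sided p of an exact permutation test is 0.33. Leaving out 1 array moved 2 of these summaries by more than 1.5 times. The median of the members was 0.25 without wildtype array 2 and 0.32 without Sox17+/- array 1. Without wildtype array 1, both Sox17+/- arrays lay above the remaining wildtype array for 31 members, against 30.3% of all tested genes. Such a count cannot fall when an array is left out.

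**Figure D1:**
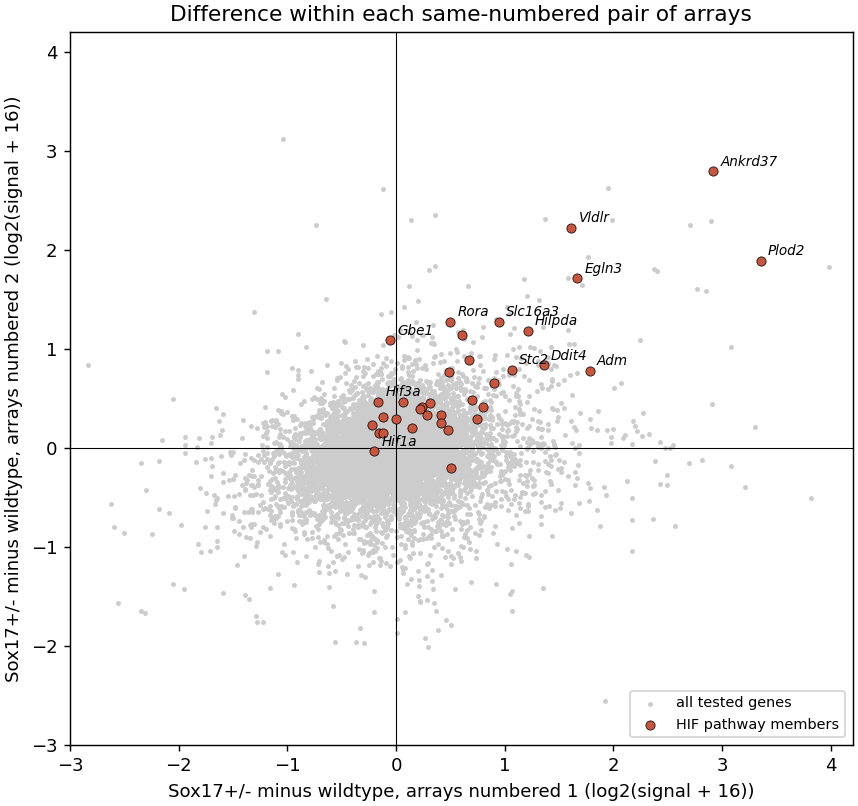
Difference between Sox17+/- and wildtype on the log2(signal + 16) scale, in the arrays numbered 1 (horizontal axis) and numbered 2 (vertical axis). Grey points are all 11685 tested genes, with 12 outside the plotted range, and filled points are the 35 members, 26 of which lie above 0 on both axes.

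Array facts touch these values. The signals had been scaled to a trimmed mean of 500 on each array, with medians from 84.7 to 103. Wildtype array 1 had the lowest Actb signal at the 3′ end (11909.5, against 24712 to 35014 on the other arrays), and its Actb signal at the 3′ end was 1.95 times that at the 5′ end, which on the other arrays was 1.20 to 1.43 times. For Tfrc this ratio was highest on Sox17+/- array 1 (4.31, against 2.31 to 3.38), and that for Gapdh was 0.807 to 0.853 on all 4 arrays. Xist, the RNA of the inactive X chromosome, gave 50.9 on Sox17+/- array 2 and 4459 to 7608 on the other 3 arrays. Without Sox17+/- array 2, the remaining Sox17+/- array lay above both wildtype arrays for 26 of 35 members, against 29.2% of all tested genes, and the median difference was 0.63. The array number also moved with the members, since array 1 was above array 2 for 24 of 35 members in wildtype and for 24 of 35 in Sox17+/- liver, against 5973 and 5734 of 11685 genes. The part of these facts in the results was not tested. Sox17 itself gave 244 and 264 in wildtype and 139 and 124 in Sox17+/- liver.

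The alpha subunits gave no common direction. Hif1a, the broadly expressed subunit, had signals of 2102 and 2129.9 in wildtype and 1825 and 2078 in Sox17+/- liver. Both Sox17+/- arrays lay below the wildtype arrays by a small margin, with a log2 difference of -0.12 (SE 0.20). Epas1, which encodes HIF-2 alpha, had 2089 and 1383 in wildtype and 1921 and 1716 in Sox17+/- liver. Hif3a, whose protein includes forms that inhibit HIF, had 3644 and 3679.5 against 3251 and 5095. For Epas1 and Hif3a the groups overlapped, with log2 differences of 0.09 (SE 0.27) and 0.15 (SE 0.28). Without wildtype array 2 the Epas1 difference was -0.20, and without Sox17+/- array 2 that of Hif3a was -0.17. The Hif1a difference was -0.03 without Sox17+/- array 1 and -0.21 without Sox17+/- array 2. Averaging every probe set of the gene gave -0.42 for Hif1a, 0.63 for Epas1 and 0.10 for Hif3a. These standard errors leave room for differences of either sign.

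Genes that feed back on HIF differed among themselves. Egln3, the hydroxylase that is itself a strong HIF target, had signals of 1016 and 413 in wildtype and 3266 and 1389 in Sox17+/- liver, or 714 ± 427 and 2328 ± 1327 (mean ± SD, n = 2 each). Both Sox17+/- arrays were above both wildtype arrays, and the log2 difference was 1.69 (SE 0.58). Within each same-numbered pair it was close to this, 1.67 and 1.71, but without wildtype array 2 it was 1.06 and without Sox17+/- array 1 it was 1.08. Egln1, the main oxygen sensor, had 2177 and 1675 against 2277 and 2319, a log2 difference of 0.27 (SE 0.23). Its Sox17+/- arrays lay just above both wildtype arrays, and the difference was 0.08 without wildtype array 2 and 0.45 without wildtype array 1. Kdm3a, a histone demethylase induced by HIF, had 1331 and 1634 against 2174 and 2298, with no overlap and a log2 difference of 0.59 (SE 0.22). Cited2, which competes with HIF for its coactivator, had 3543 and 2782 against 3045 and 3266, and its difference was 0.01 (SE 0.22).

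**Figure D2:**
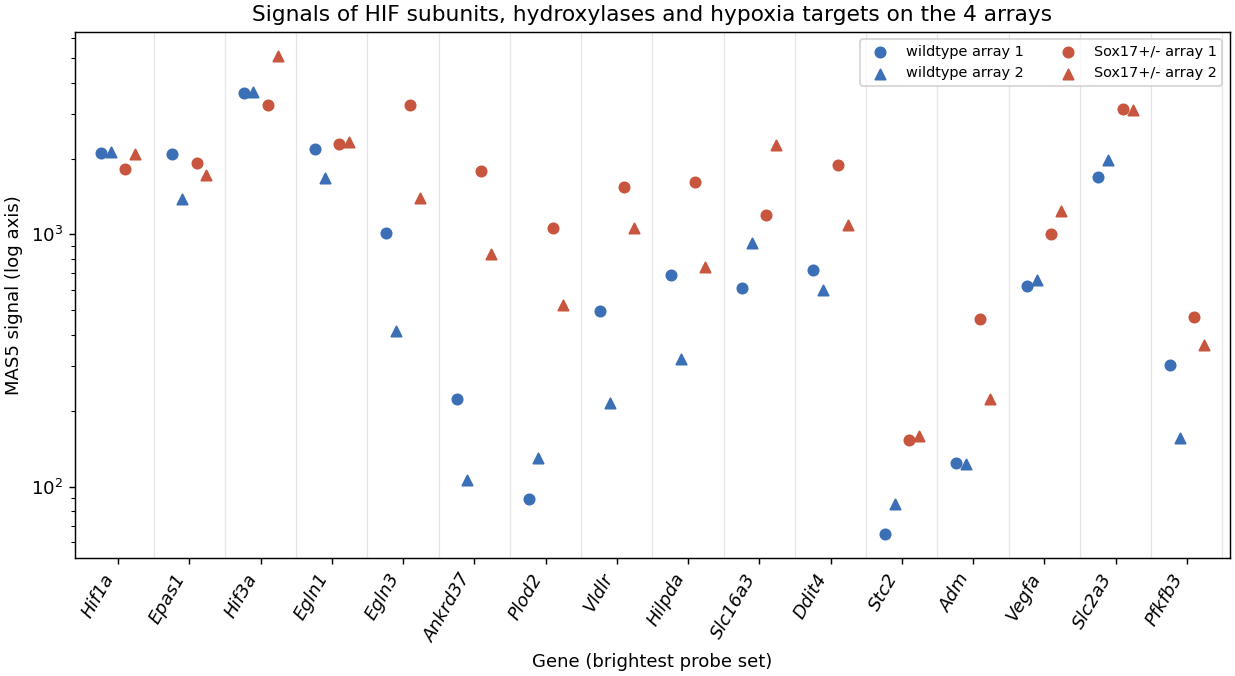
MAS5 signal (log axis) of the HIF alpha subunits, Egln1, Egln3 and the 12 members with the largest smaller pair difference on each of the 4 arrays; circles are arrays numbered 1, triangles arrays numbered 2. From Egln3 rightwards every Sox17+/- point lies above both wildtype points, while Hif1a, Epas1 and Hif3a do not show this.

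The 3 measured secreted signals were all above wildtype on both Sox17+/- arrays, against 14.5% of all tested genes. Vegfa, the main growth factor for blood vessels, had signals of 626 and 659 in wildtype and 1006 and 1237 in Sox17+/- liver. The arrays of each genotype were close together, and the log2 difference was 0.78 (SE 0.22). Adm, which encodes the vasodilator peptide adrenomedullin, had 123 on both wildtype arrays against 464 and 222. The Sox17+/- arrays were thus over 2-fold apart on the log2 scale, and the difference of 1.28 (SE 0.37) was 1.78 in the pair numbered 1 and 0.78 in the other. It was 0.77 without Sox17+/- array 1. Stc2, a secreted glycoprotein hormone, was dim, with 64.9 and 85.0 against 153 and 158 and a difference of 0.93 (SE 0.22). Its other tested probe sets gave 1.12 without overlap and 0.41 with overlap and mixed pairs.

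Genes of glucose, lactate and acid handling were mixed. Of 7 tested, 4 had a higher signal in each pair and 0 a lower one in each, against 25.5% and 32.2% of all tested genes. Slc16a3, the lactate exporter MCT4, had signals of 611 and 928 in wildtype and 1193 and 2270.4 in Sox17+/- liver, a log2 difference of 1.11 (SE 0.39). Slc2a3, a glucose transporter, had 1684 and 1976 against 3151 and 3127, a difference of 0.78 (SE 0.21). On this probe set its genotypes did not overlap, and its Sox17+/- arrays nearly coincided. Its 3 other tested probe sets gave 0.70, 0.41 and 0.10, the last 2 with overlap, and the mean over its probe sets gave 0.50. Pfkfb3, which makes an activator of phosphofructokinase, had 304 and 156 against 472 and 363, a difference of 0.87 (SE 0.36). Leaving out wildtype array 2 gave 0.43 for Pfkfb3, leaving out wildtype array 1 gave 1.32, and leaving out Sox17+/- array 2 gave 0.65 for Slc16a3. Slc2a1, the glucose transporter abundant in erythroid cells, had 23449.6 and 18672 against 32738 and 21147. Its groups overlapped, and its difference was 0.33 (SE 0.29). The other tested probe sets of Slc2a1 gave 0.39 with overlap and 0.58 without, and all 3 were higher in both pairs. The glycogen branching enzyme gene Gbe1 had 1992 and 648 against 1919.9 and 1394, so that its wildtype arrays alone were over 2-fold apart. Car9, a carbonic anhydrase, and Pfkfb4, a relative of Pfkfb3, had differences of 0.15 each (SE 0.29 and 0.21).

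Collagen modifying enzymes were led by Plod2, a lysyl hydroxylase that prepares collagen for crosslinking. Its signals were 89.0 and 130 in wildtype and 1058 and 525 in Sox17+/- liver, or 109 ± 28.8 and 792 ± 377 (mean ± SD, n = 2 each). Both Sox17+/- arrays were far above both wildtype arrays, 6.16-fold on the log2(signal + 16) scale, with a log2 difference of 2.62 (SE 0.39, unadjusted p = 0.000924 by limma). The second probe set gave 1.66, smaller but in the same direction in both pairs. All 5 tested enzymes of this role were higher in both pairs, against 25.5% of all tested genes. The prolyl hydroxylase subunit genes P4ha1 and P4ha2, the lysyl hydroxylase gene Plod1 and the lysyl oxidase gene Lox had differences of 0.52, 0.61, 0.31 and 0.32. The arrays of P4ha2 and Plod1 overlapped between genotypes.

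Both lipid handling genes had a higher signal on both Sox17+/- arrays, against 14.5% of all tested genes. Vldlr, the receptor for very low density lipoprotein, had signals of 495 and 214 in wildtype and 1547 and 1058 in Sox17+/- liver, a 3.78-fold difference on the log2(signal + 16) scale (log2 difference 1.92, SE 0.44). Hilpda, a lipid droplet protein that inhibits lipolysis, had 689 and 319 against 1616 and 746, a log2 difference of 1.20 (SE 0.51). The arrays of a genotype were 1.07 and 1.10 apart for Hilpda, slightly less than this difference, and the pairs gave 1.21 and 1.18. Without wildtype array 2 the Hilpda difference was 0.66 and without Sox17+/- array 1 it was 0.65. With the mean over all probe sets of the gene, dim untested ones included, the Vldlr difference was 1.05.

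Among mitochondrial and mitophagy genes the differences were smaller. Bnip3, which promotes mitophagy, had signals of 12130.3 and 6306 in wildtype and 17026 and 10756 in Sox17+/- liver. It was higher in both pairs, but its groups overlapped, and the log2 difference was 0.63 (SE 0.41). Higd1a, Fam162a and Pdk1, which act on respiration, apoptosis and pyruvate entry, had differences of 0.38, 0.37 and 0.31 without overlap. The adenylate kinase gene Ak4 had 2501 and 1431 against 2245 and 1590.5, a difference of -0.00 (SE 0.35).

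Ankrd37, an ankyrin repeat protein known mainly as a HIF target, had the largest difference of all members. Its signals were 223 and 106 in wildtype and 1790.2 and 834 in Sox17+/- liver, or 164 ± 82.3 and 1312 ± 676 (mean ± SD, n = 2 each). The lower Sox17+/- array was well above the higher wildtype array, and the log2 difference was 2.86 (SE 0.49), with 2.92 and 2.80 in the 2 pairs. Ddit4, an inhibitor of mTORC1 also induced by glucocorticoids and DNA damage, had 724 and 604 against 1881 and 1091, a log2 difference of 1.10 (SE 0.32), or 0.71 without Sox17+/- array 1. Rora, a nuclear receptor, had 691 and 255 against 983 and 641, so its groups overlapped and its difference of 0.89 had an SE of 0.50. Mxi1, an antagonist of Myc, had a difference of 0.33 without overlap, the repressor gene Bhlhe40 0.18 with overlap. Ndrg1, often used as a hypoxia marker, had 9576 and 5110.0 against 8824 and 5676, a difference of 0.02 (SE 0.39).

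**Figure D3:**
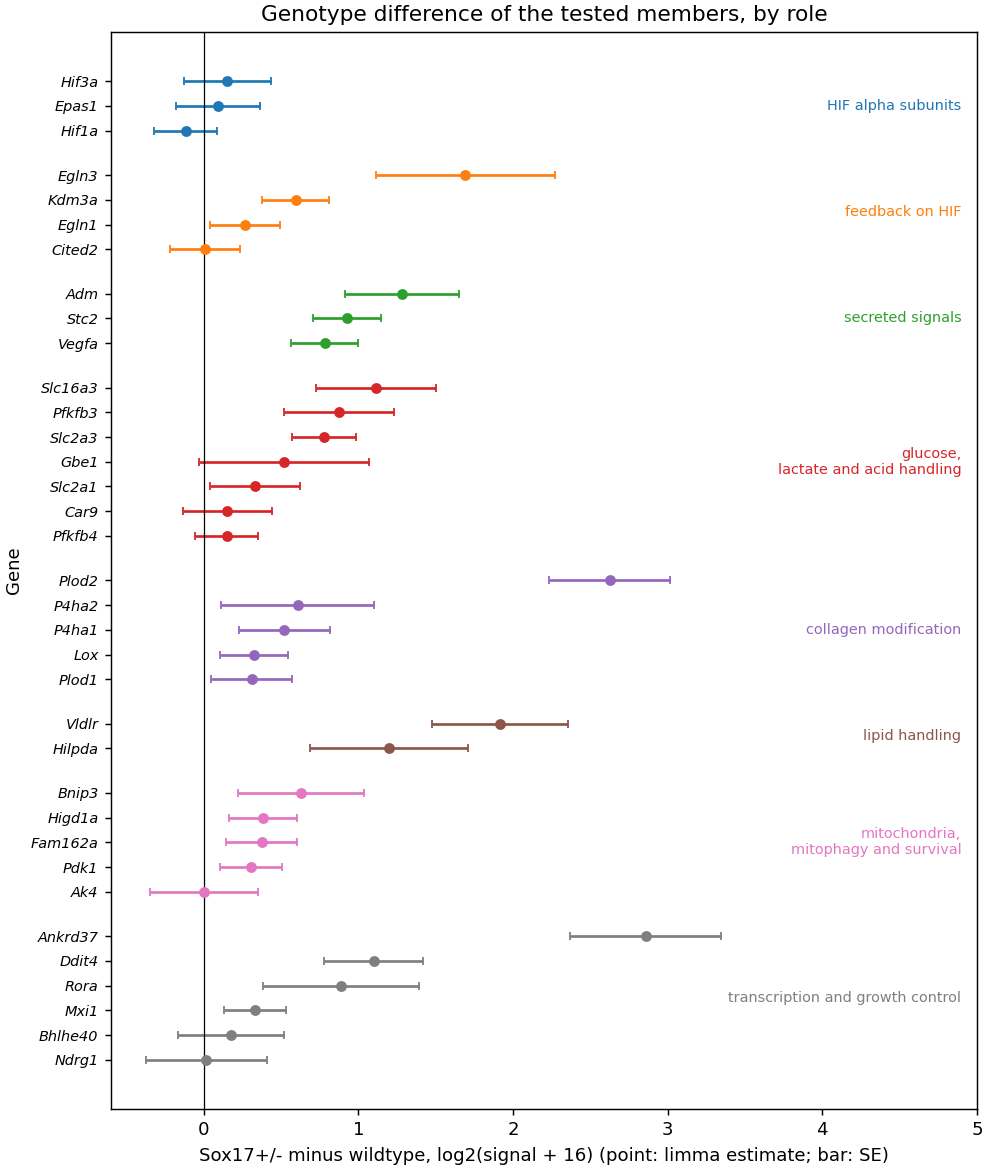
Difference between Sox17+/- and wildtype on the log2(signal + 16) scale for the 35 tested members, grouped by role (point, limma estimate; bar, SE; n = 2 arrays per genotype). Ankrd37, Plod2, Vldlr and Egln3 lie furthest to the right, and the HIF alpha subunits, Cited2, Ak4 and Ndrg1 lie near 0.

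The size of the differences was set against the spread within a genotype. For 17 of 35 members the Sox17+/- signal was higher by more than the gap between the arrays of either genotype, against 9.19% of all tested genes. In both pairs, 5 members were over 2-fold higher (Ankrd37, Plod2, Vldlr, Egln3 and Hilpda) and 0 over 2-fold lower, against 0.359% and 0.163% of all tested genes. The wildtype arrays were over 2-fold apart for 5 members, and so were the Sox17+/- arrays for 5. These 2 counts are given without the share over all tested genes.

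Different probe sets of a gene can read different parts or forms of its transcripts. The members had 93 probe sets, of which 79 were tested, and 54 of these had a higher signal in each pair and 2 a lower one, against 25.9% and 30% of all tested probe sets. Of 22 members with more than 1 tested probe set, 18 had differences of one sign on all of them and 11 were higher in both pairs on all. The same counts over all tested genes are not given, so these describe the members only. Rora was higher in both pairs on all 7 tested probe sets, with differences from 0.36 to 0.89, and Vldlr on all 3, from 0.81 to 1.92. Hif1a was below 0 on its 3 tested probe sets, from -0.20 to -0.01. Epas1 gave 0.09 on its bright probe set and 1.16 on a dimmer one, with signals of 43.1 and 86.9 in wildtype and 130 and 193 in Sox17+/- liver. Hif3a ranged from -0.21 to 0.57 on its 6 tested probe sets, of which 1 was higher in both pairs and 0 lower. Higd1a gave 0.38 on its brightest probe set and -0.23 and -0.24 on the others, so its direction depended on the probe set.

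**Figure D4:**
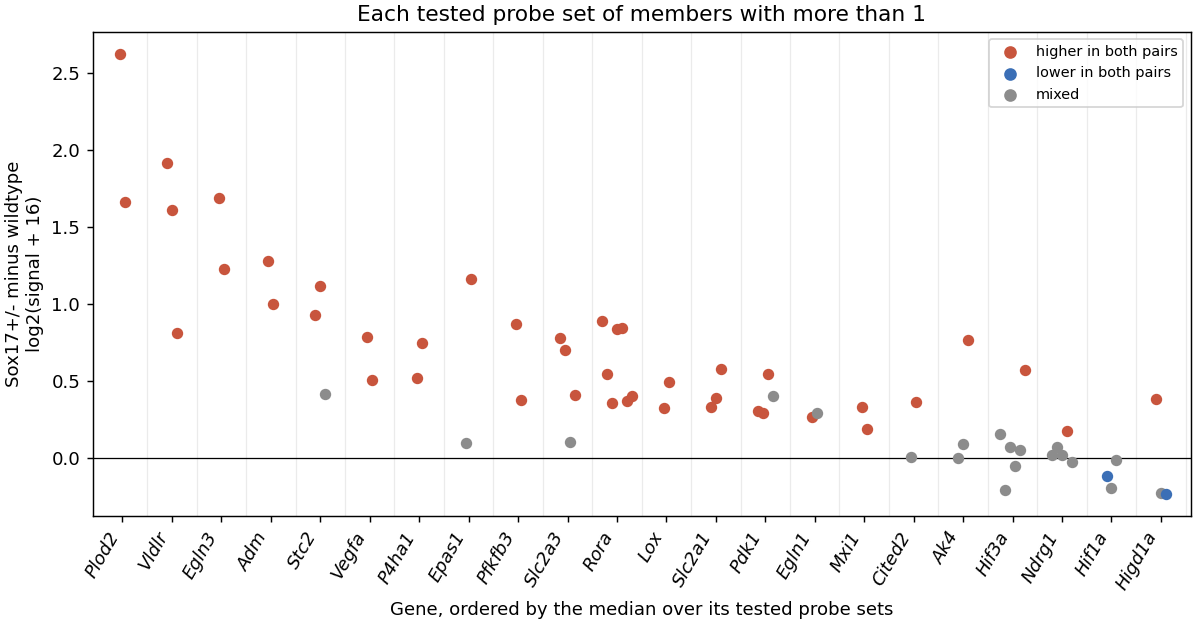
Difference between Sox17+/- and wildtype on the log2(signal + 16) scale for each tested probe set (points) of the 22 members with more than 1, coloured by direction in the 2 same-numbered pairs. All tested probe sets of Plod2, Vldlr, Egln3, Adm and Rora are higher in both pairs, and those of Hif3a, Ndrg1 and Higd1a lie on either side of 0.

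Other genes of the pathway came from 2 further lists. In the oxygen-sensing machinery (ARNT, VHL and its ligase partners, EGLN2, the asparagine hydroxylase HIF1AN and coactivators), 6 of 16 tested genes had a higher signal in each pair and 5 a lower one, set against the 25.5% and 32.2% of all tested genes. The median difference was 0.10, and 0 passed the test. Arnt, the partner of the alpha subunits, had signals of 503 and 686 in wildtype and 683 and 906 in Sox17+/- liver. Hif1an had 450.5 and 481 against 499.7 and 655, Ep300, a coactivator, 1098 and 1348 against 1218 and 1755, and Usp20, a deubiquitinase of HIF-1 alpha, 258 and 247 against 158 and 241. The sums over the 16 genes were 31498 and 32007 in wildtype and 33101 and 33154 in Sox17+/- liver, so the Sox17+/- sums were slightly above.

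Among further hypoxia targets, 24 of 43 tested genes had a higher signal in each pair and 4 a lower one, against 25.5% and 32.2% of all tested genes. The median difference of the list was 0.21, and 0 of its genes passed the test. Stc1, a hormone related to Stc2, had signals of 56.8 and 103 in wildtype and 290.2 and 171 in Sox17+/- liver. Hexokinase 2 (Hk2) had 813 and 538 against 1422 and 1187, and Ndufa4l2, a mitochondrial HIF target, 1918 and 1323 against 4529 and 2700.3. All 3 were above wildtype on both Sox17+/- arrays, but they and Hey1 were picked for the smallest p, which favours genes without overlap. Over the list, both Sox17+/- arrays lay above both wildtype arrays for 19 of 43 genes, against 14.5% of all tested genes. Hey1, a Notch target, was below wildtype on both Sox17+/- arrays, with 133 and 137 against 60.9 and 79.8 and a log2 difference of -0.82 (SE 0.22). Chosen after their values were seen, Igfbp1, a secreted binding protein of insulin-like growth factors made by hepatocytes, had 21217 and 10284 against 52667 and 28932, and Ero1a, an oxidase of protein folding, 3963 and 3028 against 6520.4 and 4986.

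Immediate early genes, a quick response to stress or stimulation, and markers of cell types were read beside these groups. Of the 16 immediate early genes, 12 were tested. Of these 12, 9 had a higher signal in each pair and 1 a lower one, against 25.5% and 32.2% of all tested genes. The median difference of the 12 was 0.88, and their sum was 9618 and 12422 in wildtype and 17711 and 15765 in Sox17+/- liver. Fos had 138 and 127 against 398 and 274, and Jun 210.2 and 246 against 1055 and 541. Atf3 had 81.1 and 36.7 against 707 and 243, and Ier3 778 and 865 against 1833 and 1398. These genes moved with the HIF targets, and their part in the result was not tested.

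Cell type marker lists gave sums that overlapped between genotypes for each of the 6 lists, while single markers lay apart in either direction. The 17 tested macrophage and Kupffer markers summed to 57143 and 45115 in wildtype and 53261 and 43936 in Sox17+/- liver. Of the 17, 4 were higher in each pair and 9 lower, against 25.5% and 32.2% of all tested genes. Both Sox17+/- arrays lay below both wildtype arrays for 6 of them, against 18.6% of all tested genes. The Kupffer cell receptor gene Vsig4 had 811 and 364 against 130 and 194, Clec4f 1097 and 584 against 487 and 402, and Timd4 681 and 704 against 515 and 626. Marco, a scavenger receptor of macrophages, lay the other way, with 2257 and 1738 against 5024 and 3274.

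The 19 tested pericyte and stellate markers summed to 49124 and 34961 against 41942 and 35887, with a median difference of 0.06. Of the 19, 7 had a higher signal in each pair and 6 a lower one, against 25.5% and 32.2% of all tested genes. The 4 with the smallest p were all higher, with Rgs5 at 77.7 and 33.7 against 354 and 228, Kcnj8 at 144 and 34.5 against 602 and 296, Abcc9 at 631 and 467 against 1449.8 and 1565, and Ngfr at 117 and 208 against 341 and 373. The pericyte receptor gene Pdgfrb had 393 and 311 against 392 and 379, and the list gave no common direction. The 21 endothelial markers summed to 15801 and 12959 against 15211 and 15331, with 9 higher in each pair and 3 lower, against the same 25.5% and 32.2%. For 9 of the 21 (42.9%) both Sox17+/- arrays lay above both wildtype arrays, against 14.5% of all tested genes, and for 3 both lay below, against 18.6%. Robo4 had 220.2 and 185 against 274 and 304, Sox18 345 and 403 against 542 and 495, Sox7 172 and 173 against 256 and 212, and Tek 459.7 and 304 against 210 and 296.

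The 15 tested hepatocyte markers (of 18 matched, with Ass1, Tat and Tdo2 too dim) summed to 502745 and 308258 in wildtype and 478840 and 292972 in Sox17+/- liver. Of the 15, 1 was higher in both pairs and 7 lower, against 25.5% and 32.2% of all tested genes. Cps1 had 10850.0 and 4500.4 against 5006 and 3920.2, Apob 2747 and 4324 against 5396 and 3429.9, Hnf4a 3924 and 2641 against 2867 and 2687, and Serpina1b 41395 and 27233 against 36746 and 25351. The arrays of all 15 overlapped between genotypes, as did those of 7810 of 11685 tested genes. Array 1 was above array 2 for these markers by a median log2 gap of 0.70 in wildtype and 0.72 in Sox17+/- liver. Over all tested genes the gaps were 0.01 and -0.01. Such gaps make overlap likely, so it does not show that hepatocyte markers were alike. The 14 tested erythroid markers summed to 171718 and 165492 against 176207 and 158551, with 2 higher in both pairs and 5 lower, against the same 25.5% and 32.2%. Sptb had 2142 and 2677 against 3063 and 3717, Rhag 12977 and 12405 against 15192 and 13121, Gata1 3822 and 4879 against 3136 and 4266, and Trim10 12454 and 12401 against 11114 and 11002. The 4 tested biliary markers summed to 8076 and 2396 against 4564 and 2282. Most of that sum was Tff3, with 7669 and 2069.8 against 4105 and 1971, while Krt19 had 130.9 and 59.2 against 80.6 and 85.8, Sox9 144 and 76.3 against 149 and 80.1, and Epcam 132 and 191 against 229.8 and 145. Krt7, Cftr and Muc1 were too dim to be tested. The part of these cells in the differences of the HIF targets was not tested.

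**Figure D5:**
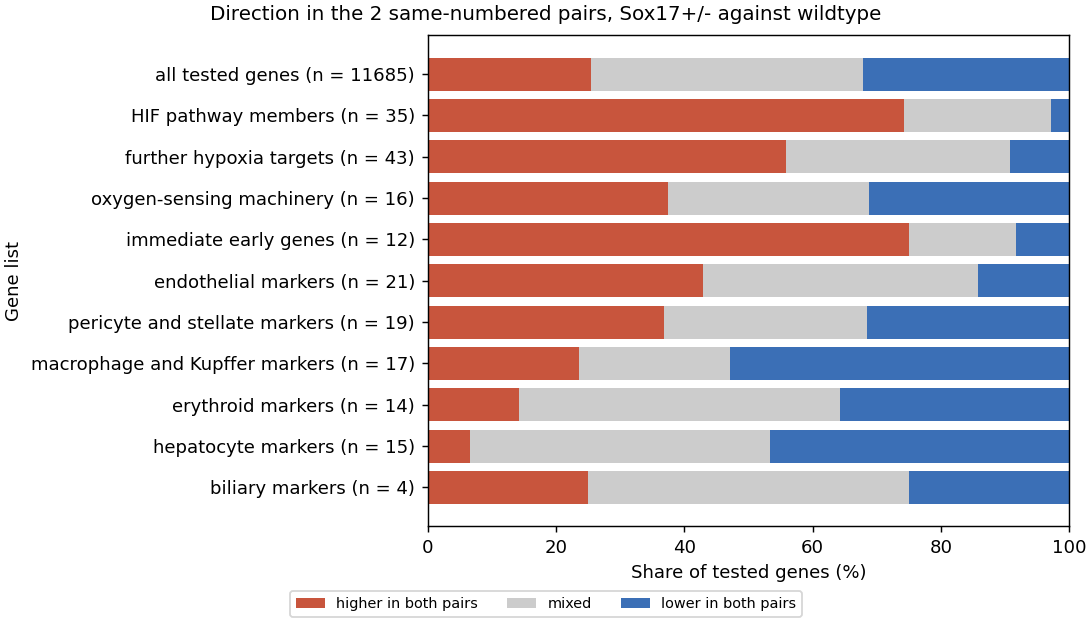
Share of tested genes (horizontal axis, %) that were higher in both same-numbered pairs, mixed, or lower in both, Sox17+/- against wildtype, for each gene list. The HIF members (74.3% higher), the immediate early genes (75%) and the further hypoxia targets (55.8%) stand furthest above all tested genes (25.5%). Endothelial markers (42.9%), the oxygen-sensing machinery (37.5%) and pericyte and stellate markers (36.8%) are also above. Biliary (25%), macrophage and Kupffer (23.5%), erythroid (14.3%) and hepatocyte markers (6.67%) are not.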

How the data were processed

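Fetal mouse liver was measured on single-colour Affymetrix arrays, 2 biological replicates per genotype, per the labels. The deposited table holds linear intensity values, for which the submitters' processing notes name MAS5. Each array's mean without its lowest and highest 2% was 500, as seen in the values. Of 45101 probe sets, 64 controls were left out. Of the rest, 34945 had 1 gene symbol in the platform annotation, 932 several and 9160 none listed.

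The brighter 50% of probe sets by mean log2(signal + 16) were tested for genotype in limma (version 3.58.1, R 4.3.3, lmFit with eBayes, two-sided, 2 residual and 3.24 prior degrees of freedom). P-values were adjusted over the tested probe sets (Benjamini-Hochberg), and the code was tested on simulated data. Whether replicates came from separate litters is not stated, so the p-values measure only the spread between these arrays. Full values were given for the alpha subunits, Egln1, Egln3 and, in each direction, up to 12 members with the largest smaller pair difference, and for up to 4 genes of each further list by smallest p. Igfbp1, Ero1a and Pdgfrb, and the values per array of other members, were added after they were seen. The members and lists were chosen with earlier results of these data known. Promoters are from RefSeq, with entries for 31 of 39 members. Same-numbered arrays share a code in the labels, and whether it marks a batch is not stated. Alternatives were pseudocounts of 1 and 64, other filters, median centring, quantile normalization, the array number as a block, a trended prior, each array left out, and the mean over a gene's probe sets. This mean included probe sets too dim to be tested.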

Additional observations from a re-analysis of the deposited data

How the results depend on the processing

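The 4 summaries (probe sets called, members called, members higher on both Sox17+/- arrays and the members' median) kept their value within 1.5 times under other pseudocounts, filters, median centring and quantile normalization. With the mean over a gene's probe sets the last 3 did so, and the number of probe sets called was not run. With a trended, robust prior limma called 3 probe sets (lowest adjusted p = 0.0349), none of them a member. With each array left out in turn, the count of members above wildtype on the remaining arrays ranged from 21 to 31 (all 4 arrays, 20). Such a count can only stay or rise when an array is left out, so its rise is no sign of robustness. Over all tested genes the share was 29.2% to 31.4% (all 4 arrays, 14.5%). The members' median log2 difference ranged from 0.25 to 0.63 (all 4 arrays, 0.52), and the cause was not tested. When an array was left out, the differences of Epas1 (-0.20 to 0.39) and Hif3a (-0.17 to 0.47) turned sign. The other 14 named members kept their direction under every alternative run. Leaving out 1 array moved 8 of them by over 1.5 times (Hif1a -0.21 to -0.03, Egln1 0.08 to 0.45, Egln3 1.06 to 2.33, Hilpda 0.65 to 1.75, Pfkfb3 0.43 to 1.32, Adm 0.77 to 1.79, Slc16a3 0.65 to 1.57, Ddit4 0.71 to 1.49), and the mean over probe sets moved Vldlr to 1.05, Slc2a3 to 0.50, Hif1a to -0.42, Epas1 to 0.63 and Hif3a to 0.10.

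With the array number as a replicate block, limma called 0 probe sets, the lowest adjusted p, also of a member (Ankrd37), was 0.190, and the members' median stayed at 0.52. At an unadjusted p under 0.05 the block gave 1693 probe sets, against 923 without it, and 16 members, against 11. The deviations of same-numbered arrays from the mean of their genotype correlated (r = 0.383 over 22519 probe sets, which are not independent replicates), a hint from the data and not from the design. The number of arrays limits the precision, and the part of signal over background in the lack of calls was not tested.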
